A study of Mus musculus with 4 samples.

Results

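The 9 genes described here, of 49997 in the count tables, encode adhesion molecules of the synapse: the neurexins Nrxn2 and Nrxn3, the neuroligins Nlgn1, Nlgn2 and Nlgn3, the leucine-rich repeat proteins Lrrtm1 and Lrrtm2, the neurexin-like protein Cntnap2 and the immunoglobulin protein Cadm1. They were taken by symbol from a list of named genes, and all 9 have a row in every count table. They were measured in wild-type iMOP cells, an immortalized mouse line of multipotent otic progenitors, either proliferating with basic FGF at 20 ng/ml in DMEM/F12 with B27, or as neurons derived from them and kept in Neurobasal medium with N21 and K03861 at 1 µM. K03861 inhibits the cell cycle kinase CDK2. Each group had 2 libraries of ribosome-depleted total RNA, which the titles call biological replicates 1 and 2. All 4 come from the same cell line, and whether the replicates were separate differentiations is not stated, so p-values measure the spread between these samples. In the series' title the subject is the chromatin remodeller CHD7 during neuronal differentiation. The groups compared here also differ in medium, supplement, basic FGF and K03861 as listed. Differences between them cannot be told apart by differentiation or by these conditions.

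Neurexins sit on the presynaptic membrane and bind partners across the synaptic cleft. Neuroligins and LRRTM proteins are postsynaptic partners that compete for or share neurexin binding sites, and recruit scaffolds and receptors on their own side. Neuroligin 1 is found mainly at excitatory synapses, neuroligin 2 at inhibitory synapses and neuroligin 3 at both. CNTNAP2 (Caspr2) is a distant relative of the neurexins that clusters potassium channels on axons, and CADM1 (SynCAM1) joins cells through like and related immunoglobulin proteins. Spiral ganglion neurons of the inner ear, the cells that otic progenitors of this lineage can give rise to, form glutamatergic synapses.

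Neurexin genes make several proteins from distant start sites, and the tables give 1 count per gene, so these forms were counted together. RefSeq promoter windows (GRCm38.p6, from 250 bases before to 50 after a start site, on the gene's strand) were matched by symbol for 5 of the 9 genes: Nrxn3, Nlgn1, Nlgn2, Cntnap2 and Lrrtm1. Nrxn2, Nlgn3, Lrrtm2 and Cadm1 had no window used here. The first pair below shows annotated starts of Nrxn3, the gene of the 9 that varied most between libraries. They are at chr12:88794254-88794553 and chr12:89812233-89812532, both on the plus strand and 1018 kb apart. Both lie inside the gene, which begins at chr12:88722876, so the name upstream gives only their order. Whether either acts as a promoter was not tested. The last 50 bases of the upstream window are the start of 1 GENCODE transcript, and those of the internal window of 2. The third is the Nlgn2 window at chr11:69837735-69838034 on the minus strand, the neuroligin with the most counts. Capitals mark CpG dinucleotides.
Nrxn3 upstream start: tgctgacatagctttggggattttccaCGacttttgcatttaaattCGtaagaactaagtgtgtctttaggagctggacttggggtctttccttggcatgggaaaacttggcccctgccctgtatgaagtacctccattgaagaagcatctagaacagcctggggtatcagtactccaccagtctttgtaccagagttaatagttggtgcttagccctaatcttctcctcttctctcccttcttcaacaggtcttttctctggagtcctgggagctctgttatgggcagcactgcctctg
Nrxn3 internal start: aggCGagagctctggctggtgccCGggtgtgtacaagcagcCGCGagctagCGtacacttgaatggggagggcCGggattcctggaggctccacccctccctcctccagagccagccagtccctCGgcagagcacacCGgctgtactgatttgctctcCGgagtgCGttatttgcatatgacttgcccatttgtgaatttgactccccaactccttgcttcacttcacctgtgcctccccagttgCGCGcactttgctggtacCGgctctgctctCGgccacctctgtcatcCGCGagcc
Nlgn2 start: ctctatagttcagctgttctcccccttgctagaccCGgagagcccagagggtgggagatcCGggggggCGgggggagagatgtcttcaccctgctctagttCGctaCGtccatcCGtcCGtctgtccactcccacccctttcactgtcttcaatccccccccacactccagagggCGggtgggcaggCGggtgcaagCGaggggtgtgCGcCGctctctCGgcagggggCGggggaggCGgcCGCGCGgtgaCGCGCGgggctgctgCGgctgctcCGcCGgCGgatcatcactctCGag

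The upstream Nrxn3 window has 2 CpG dinucleotides and a GC content of 47.3%. The internal Nrxn3 window has 16 CpG and 60.7% GC. Another Nrxn3 window, between them and not printed, has 6 CpG and 47.7% GC. In the Nlgn2 window there are 26 CpG and 68.7% GC, against a median of 7 CpG and 52.7% GC over the 32851 windows of the table. At least as many CpG as in the Nlgn2 window are found in 16.9% of all windows. The motif GGGCGG (GC box), searched on both strands, occurs 3 times in the Nlgn2 window and in neither printed Nrxn3 window. In the Nrxn3 window not printed it occurs 1 time. It is found in 35.7% of all windows. The motif CANNTG (E-box, its own reverse complement) occurs 5 times in the internal Nrxn3 window, 1 time in the Nlgn2 window and not in the upstream Nrxn3 window. E-boxes of this loose form are in 72.3% of all windows.

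Another search was for TTCAGCACC, the left arm of the RE1 element bound by the neuronal gene repressor REST, on both strands. Of the 9 windows used for these genes, 1 holds it, and 0.371% of all windows do. That window belongs to Nlgn1, at chr3:26153937-26154236 on the minus strand, and is shown with the match in capitals. A match of letters is a description and not evidence of binding.
Nlgn1 internal start: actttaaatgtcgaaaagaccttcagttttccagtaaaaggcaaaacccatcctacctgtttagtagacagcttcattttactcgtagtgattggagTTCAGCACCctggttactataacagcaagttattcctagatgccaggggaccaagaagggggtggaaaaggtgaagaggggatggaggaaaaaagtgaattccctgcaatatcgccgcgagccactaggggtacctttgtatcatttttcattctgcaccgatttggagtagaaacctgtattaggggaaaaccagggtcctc

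The libraries held 2595578 to 3850766 counts outside the 18S ribosomal RNA row, which took 53.3% to 76.1% of each library's counts. This share was higher in both replicate 2 libraries (75.0% and 76.1%) than in both replicate 1 libraries (53.3% and 59.4%). Proliferating replicate 2 had the fewest genes with a count, 17762, against 20012 to 21637 in the others. The labels were checked against markers. The 12 neuron markers summed to 164 and 354 CPM in proliferating replicates 1 and 2, against 203 and 371 CPM in neurons. These ranges overlap across pairs, the sum was higher in neurons within each pair, and all 12 were found in both proliferating libraries. Tubb3 alone made up 194 of the 354 CPM in proliferating replicate 2. Elavl4 was above both proliferating libraries in both neuron libraries (7.56 and 12.2 against 17.7 and 38.0 CPM), as was Map2 (93.9 and 92.3 against 121 and 141 CPM). The other tested neuron markers overlapped between the groups. Of these, Tubb3, Stmn2, Syt1 and Syp had negative log2 fold changes, and Elavl3, Rbfox3, Snap25, Nefl and Dcx positive ones. The neurofilament gene Nefm had 0 or 1 count everywhere. The 6 markers of cycling progenitors also overlapped, at 381 and 297 CPM in proliferating cells against 481 and 248 CPM in neurons. Each of the 6 overlapped on its own. Within both pairs the cell cycle genes Mki67, Top2a and Pcna were higher in neurons. Sox2, Nes and Ccnb1 went opposite ways in the pairs. The 9 glial markers did not overlap, at 160 and 112 CPM in proliferating cells against 68.6 and 18.2 CPM in neurons, with 7 or 8 of the 9 found in each library. Among them, Mbp was at 0 in both replicate 1 libraries, Sox10 in proliferating replicate 2 and Aldh1l1 in neuron replicate 2. The astrocyte gene Gfap had 181 and 89 counts in proliferating cells and 1 and 2 in neurons. Of the 4 hair cell markers, Pou4f3 and Otof were at 0 in every library, while Atoh1 was found in all and Myo7a in some. Their sum was 2.88 and 2.57 CPM in proliferating cells against 0.0841 and 9.38 CPM in neurons. Of the 5 fibroblast or mesenchyme markers, Col1a2 and Dcn were at 0 in every library. Pdgfra was found in all, and Col1a1 and Col3a1 in some. These markers summed to 10.3 and 10.2 CPM in proliferating cells against 17.1 and 7.14 CPM in neurons. In bulk RNA, fewer cells of a type and less RNA per cell cannot be told apart. CPM here is the usual count per library size, with that size scaled by TMM, and counts without molecular identifiers give intervals for counting error only.

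**Figure D1:**
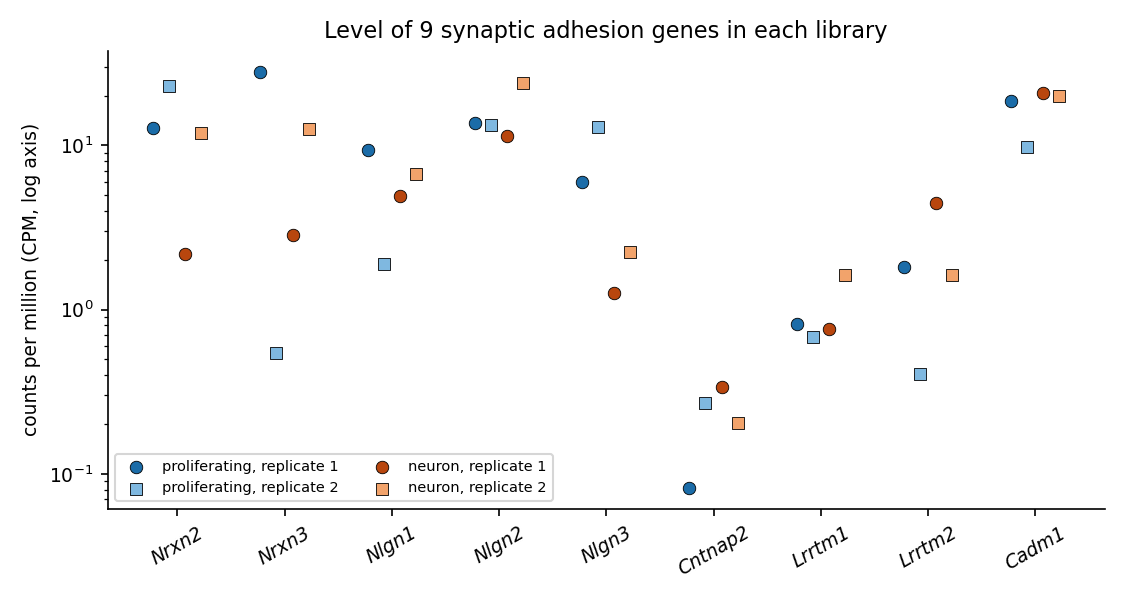
Level of each of the 9 genes in each library, in CPM after TMM scaling (log axis). Circles are replicate 1, squares replicate 2, blue shades proliferating cells and orange shades neurons. Nrxn2 and Nlgn3 are lower in both neuron libraries than in both proliferating libraries, while Nrxn3 spans 0.54 to 28.1 CPM among proliferating cells alone.

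Nrxn2, a presynaptic neurexin, was lower in both neuron libraries than in both proliferating libraries. It lies at chr19:6418731-6544169 on the plus strand (mm10, GENCODE M21). Counts were 154 and 170 in proliferating replicates 1 and 2, against 26 and 116 in neuron replicates 1 and 2. As levels these were 12.7 and 23.0 CPM in proliferating cells against 2.19 and 11.8 CPM in neurons, so the lowest proliferating and the highest neuron library were close. Group means were 17.8 ± 7.32 and 7.01 ± 6.82 CPM (SD, n = 2 per group). The log2 fold change of neurons over proliferating cells was -1.35 (SE 0.79; edgeR adjusted p = 0.9998). By pair it was -2.43 in replicate 1 and -0.95 in replicate 2, so the replicate 1 pair held the larger difference. The ratio of proliferating to neuron level was 5.79 in the first pair (95% exact counting interval 3.8 to 9.14) and 1.95 in the second (1.53 to 2.49). Leaving out neuron replicate 1 gave a log2 fold change of -0.63, and leaving out neuron replicate 2 gave -3.02. An annotated antisense transcript and the opposite-strand gene Slc22a12 share 207 and 682 exon bases with Nrxn2, and Slc22a12 had 0 to 3 counts.

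Nrxn3, the other neurexin, went opposite ways in the pairs. Its gene spans 1612.1 kb at chr12:88722876-90334935. It had 342 counts in proliferating replicate 1 and 4 in proliferating replicate 2, against 34 and 123 in the neuron replicates. Proliferating replicate 1 was the highest library at 28.1 CPM and proliferating replicate 2 the lowest at 0.54 CPM, with the neurons between them at 2.86 and 12.5 CPM. The groups therefore overlapped completely, and the 51.9-fold difference within the proliferating group exceeded every difference between groups. A log2 fold change of -0.91 (SE 1.34; edgeR adjusted p = 0.9998) was fitted over all 4 libraries. In the replicate 1 pair the difference was -3.21 and in the replicate 2 pair 4.11 on the log2 scale. The counting intervals do not reach each other: neuron over proliferating was 0.102 (0.0693 to 0.145) in the first pair and 23.2 (8.82 to 86.3) in the second. The fitted value became 3.75 without proliferating replicate 1, -1.88 without proliferating replicate 2, -0.23 without neuron replicate 1 and -2.33 without neuron replicate 2. With the replicate number as a block it was 0.03 (SE 1.66).

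Nlgn3, a neuroligin found at excitatory and inhibitory synapses, showed the largest fitted difference of the 8 tested genes, of nearly the same size in both pairs. It lies at chrX:101299168-101325963 on the plus strand. Its counts were 73 and 96 in proliferating cells against 15 and 22 in neurons, replicate 1 first. Both proliferating libraries, at 6.0 and 13.0 CPM, were above both neuron libraries, at 1.26 and 2.24 CPM. Proliferating cells had a mean of 9.5 ± 4.95 CPM and neurons one of 1.75 ± 0.694 CPM (SD, n = 2 per group), which is 5.39-fold lower in neurons in the fit. The log2 fold change was -2.43 (SE 0.63), the 82nd smallest p-value of the 12783 tested genes, but not past the threshold (edgeR unadjusted p = 0.00555, adjusted p = 0.8649). The pairs agreed in size: Nlgn3 was lower in neurons by 4.75-fold (95% counting interval 2.7 to 8.92) in replicate 1 and by 5.79-fold (3.62 to 9.67) in replicate 2. Leaving out a library gave log2 fold changes of -2.92 to -1.78. The edgeR adjusted p-value was 0.0486 without proliferating replicate 1, a fit that called 127 genes and takes the lone proliferating library to vary as the neurons do. A noncoding GENCODE model on the same strand, Gm21986, shares 3823 exon bases with Nlgn3.

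Nlgn1, the neuroligin typical of excitatory synapses, showed no difference between the groups beyond the spread within them. Its gene spans 906.2 kb at chr3:25426215-26332460 on the minus strand. Proliferating replicate 1 had 114 counts and replicate 2 had 14, against 58 and 66 in neurons. Both neuron libraries, at 4.88 and 6.73 CPM, lay between the proliferating libraries at 9.37 and 1.9 CPM. Its log2 fold change was 0.02 (SE 0.74; edgeR adjusted p = 0.9998), and its sign changed with the scaling, at -0.64 with library size alone. By pair it was -0.91 and 1.73, the same crossing as in Nrxn3 at a smaller size. Without proliferating replicate 1 it was 1.58, and -0.69 without proliferating replicate 2.

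Nlgn2, the neuroligin of inhibitory synapses, had the most counts of the neuroligins in every library. It lies at chr11:69823122-69837784 on the minus strand. There were 167 and 98 counts in proliferating cells, against 136 and 234 in neurons. At 13.7 and 13.3 CPM the proliferating libraries were alike, and the neuron libraries lay on either side of them at 11.4 and 23.9 CPM. Its log2 fold change was 0.39 (SE 0.53; edgeR adjusted p = 0.9998), and -0.06 with library size alone. Leaving out neuron replicate 2 gave -0.24, and leaving out neuron replicate 1 gave 0.78. The second pair differed by 1.8-fold (counting interval 1.41 to 2.3), and the first by 0.834-fold with an interval that includes no difference (0.66 to 1.05).

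**Figure D2:**
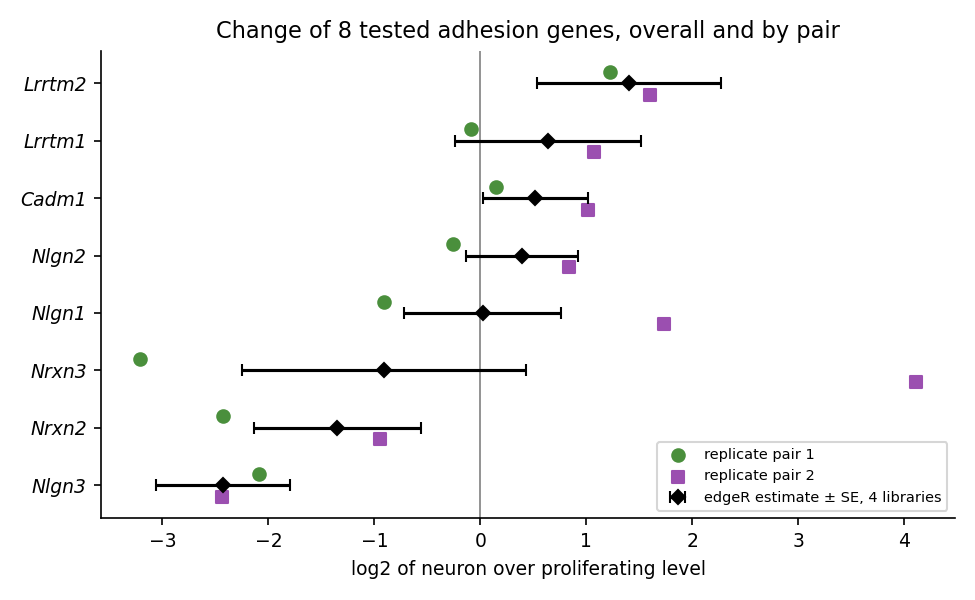
Log2 of the neuron over the proliferating level for the 8 tested genes. Diamonds with bars are the edgeR estimate and its SE over all 4 libraries, green circles replicate pair 1 and purple squares replicate pair 2. Nlgn3 (-2.09 and -2.44) and Nrxn2 (-2.43 and -0.95) are below 0 and Lrrtm2 (1.22 and 1.6) above 0 in both pairs, while the pairs of Nrxn3 fall at -3.21 and 4.11.

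The leucine-rich repeat genes had few counts. Lrrtm2, a postsynaptic neurexin ligand, had 22 and 3 counts in proliferating cells against 53 and 16 in neurons. It was higher in neurons in both pairs, by 2.47-fold (counting interval 1.47 to 4.26) and 4.02-fold (1.15 to 21.5, from 3 counts against 16). Across pairs the groups overlapped, since proliferating replicate 1 at 1.81 CPM was above neuron replicate 2 at 1.63 CPM. Proliferating replicate 2 was lowest at 0.41 CPM and neuron replicate 1 highest at 4.46 CPM. The log2 fold change was 1.4 (SE 0.87; edgeR adjusted p = 0.9998), and 2.86 without proliferating replicate 1 but 0.47 without neuron replicate 1. Lrrtm2, at chr18:35209003-35215024, lies inside Ctnna1 on the opposite strand, with which it shares 95 exon bases. Ctnna1 had 350 to 454 counts per library, and whether the counting used strand is not given in the sources used here.

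Lrrtm1, its paralog, had 10 and 5 counts in proliferating cells against 9 and 16 in neurons. Its levels overlapped, at 0.822 and 0.677 CPM in proliferating cells against 0.757 and 1.63 CPM in neurons, with 3 of the 4 libraries close together. A log2 fold change of 0.64 was fitted (SE 0.88; edgeR adjusted p = 0.9998), with 0.01 without neuron replicate 2. In both pairs the counting interval included no difference (0.331 to 2.52 and 0.844 to 8.41), so none was detectable at this depth. Lrrtm1 lies at chr6:77242689-77257791 inside Ctnna2, on the opposite strand and with no shared exon bases.

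Cntnap2, which spans 2244.9 kb at chr6:45059357-47304213, had 1 and 2 counts in proliferating cells against 4 and 2 in neurons. It did not pass the filter on low counts and was not tested. It had the fewest counts of the 9 genes in each of the 4 libraries, at 0.08 to 0.34 CPM. Its counts lie near the 3 counts that an observed 0 allows, so no ratio is given. In proliferating replicate 2, Lrrtm2 with 3 counts and Nrxn3 with 4 were also near that limit.

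Cadm1, the SynCAM adhesion gene at chr9:47530173-47857637, had the most counts of the 9 genes summed over the libraries (742), though not in each library. Proliferating cells had 227 and 72 counts of it, against 247 and 196 in neurons. In CPM the neuron libraries were alike, at 20.8 and 20.0, and both were above the proliferating libraries at 18.7 and 9.75. The first pair barely differed, by 1.11-fold (counting interval 0.926 to 1.34), and the second by 2.05-fold (1.56 to 2.72). The log2 fold change was 0.52 (SE 0.50; edgeR adjusted p = 0.9998), 0.08 with library size alone and 0.13 without proliferating replicate 2. On the deposited RPKM scale, which does not use TMM, the groups overlapped, with 0.326 and 0.0742 in proliferating cells and 0.279 and 0.145 in neurons.

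Across the 8 tested genes, 5 had a positive and 3 a negative log2 fold change, with a median of 0.20 against 0.02 over all 12783 tested genes. At an adjusted p-value under 0.05, 0 of the 8 were called by edgeR, as were 0% of all genes, while 117 genes were higher and 321 lower at an unadjusted p-value under 0.05 and DESeq2 called 12 higher and 47 lower. At an unadjusted p-value under 0.05 there was 1 of 8, Nlgn3, lower in neurons, where 2.51% of all genes were lower and 0.915% higher by this rule. DESeq2 also called 0 of the 8. Nrxn2 and Nlgn3 were below the proliferating range in both neuron libraries, as were 14.5% of all tested genes, and Cadm1 was above it, as were 12.9%. With the replicate number as a block, the unadjusted count was 3 of 8. In that fit Nlgn3 (log2 fold change -2.39, SE 0.53, edgeR adjusted p = 0.179) and Nrxn2 (-1.70, SE 0.54, 0.484) were lower, where 3.48% of all genes were, and Lrrtm2 (1.55, SE 0.68, 0.789) was higher, where 2.7% were. The glial markers were lower in both neuron libraries together with Nrxn2 and Nlgn3, at the summed levels given above, and their part in these differences was not tested.

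The balance within the neuroligin family does not depend on the scaling between libraries. This view was chosen after the values were seen. Of the counts of the 3 neuroligin genes, the Nlgn3 share in proliferating replicate 1 was 20.6% (95% Wilson interval 16.7% to 25.1%), against 46.2% in replicate 2 (39.5% to 52.9%). As neurons, the cells had shares of 7.18% (4.4% to 11.5%) and 6.83% (4.55% to 10.1%). The neuron libraries were thus alike and both lay below the proliferating libraries, whose own shares differed from each other. Nlgn2 took 47.2% and 47.1% of neuroligin counts while the cells proliferated. In neurons it took 65.1% (58.4% to 71.2%) and 72.7% (67.6% to 77.2%), above both. A share can be larger with no higher level of the gene: in the first pair Nlgn2 itself was at 13.7 CPM in proliferating cells against 11.4 CPM in neurons. Nlgn1 had 32.2% and 6.73% in proliferating cells and 27.8% and 20.5% in neurons, which overlap. These are shares of counts and not of transcripts, since the genes differ in length, and with 2 libraries against 2 an exact permutation test cannot give a two-sided p below 0.333.

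Within the neurexin pair, Nrxn2 took 31.0% of the counts of Nrxn2 and Nrxn3 in proliferating replicate 1 (27.1% to 35.3%) and 97.7% in proliferating replicate 2 (94.2% to 99.1%). In neurons the shares were 43.3% (31.6% to 55.9%) and 48.5% (42.3% to 54.8%). The neuron libraries lay between the proliferating libraries, so the neurexin balance differed more within the proliferating group than between groups.

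**Figure D3:**
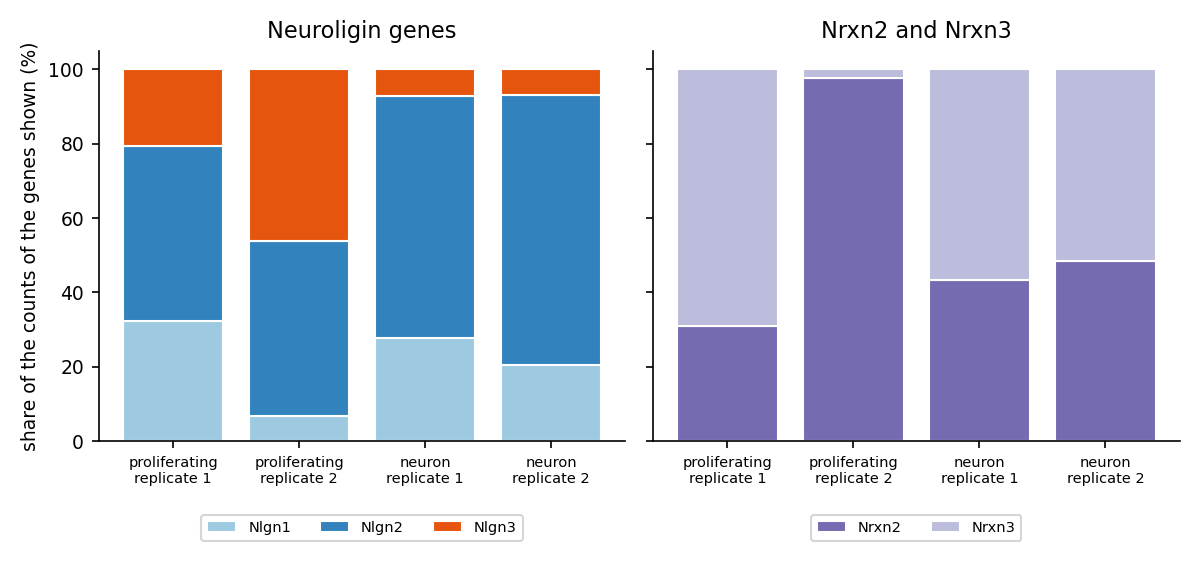
Share of counts, in percent, held by each neuroligin gene (left) and by Nrxn2 and Nrxn3 (right) in each of the 4 libraries. Nlgn3 takes 20.6% and 46.2% of neuroligin counts in proliferating cells and 7.18% and 6.83% in neurons, while the Nrxn2 share of 97.7% sets proliferating replicate 2 apart.

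Levels of different genes can be compared only per length, and the order of the 9 genes depended on the length used. In the deposited RPKM, averaged over the 4 libraries, Nlgn3 was first at 1.43, followed by Nlgn2 at 0.775, Lrrtm2 at 0.438, Nrxn2 at 0.235 and Cadm1 at 0.206. Lrrtm1 (0.0307), Nlgn1 (0.0257), Nrxn3 (0.017) and Cntnap2 (0.0136) came last. On this scale alone, the order of Nlgn3 and Nlgn2 differed between the groups. Nlgn3 was above Nlgn2 in both proliferating libraries (2.52 and 2.38 against 1.11 and 0.469). It was below Nlgn2 in both neuron libraries (0.408 and 0.391 against 0.713 and 0.803). In neuron replicate 1 the highest of the 9 was Lrrtm2 at 0.986. Neighbours in the averaged order overlapped in their range over the libraries, except Cadm1 (0.0742 to 0.326) and Lrrtm1 (0.0152 to 0.0425). The length that each RPKM value implies was 856.4 kb for Nrxn3, 108.1 times its longest GENCODE transcript of 7.92 kb, and RefSeq lists 51 transcripts for that gene. For Nlgn3, with 1 RefSeq transcript, it was 3.9 kb, or 0.5 times the longest GENCODE transcript of 8.54 kb. RPKM recomputed from the same counts and totals with the longest GENCODE transcript as length instead put Cadm1 first at 4.04, then Nlgn2 at 2.8, Nrxn3 at 1.84 and Nrxn2 at 1.79. Nlgn3 followed by that measure at 0.649, before Nlgn1 at 0.579, Lrrtm2 at 0.438, Lrrtm1 at 0.328 and Cntnap2 at 0.0226. With this length Nlgn3 was below Nlgn2 in every library. Nlgn3 had 1.15 and 1.08 against 4.03 and 1.7 for Nlgn2 in proliferating cells. In neurons Nlgn3 had 0.185 and 0.178 against 2.58 and 2.9 for Nlgn2. The length implied by the deposited RPKM of Nlgn2 was 20.1 kb, 3.6 times its longest transcript. The place of Nrxn3 rests on proliferating replicate 1, where it was at 5.8, against 0.0487 in proliferating replicate 2 and 0.453 and 1.07 in neurons. Without that library its mean was 0.524, an alternative chosen after seeing the data, and it came after Nrxn2. By their means over 4 libraries, Nlgn2 was second and Cntnap2 last on both scales, and ratios between libraries are the same on both.

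**Figure D4:**
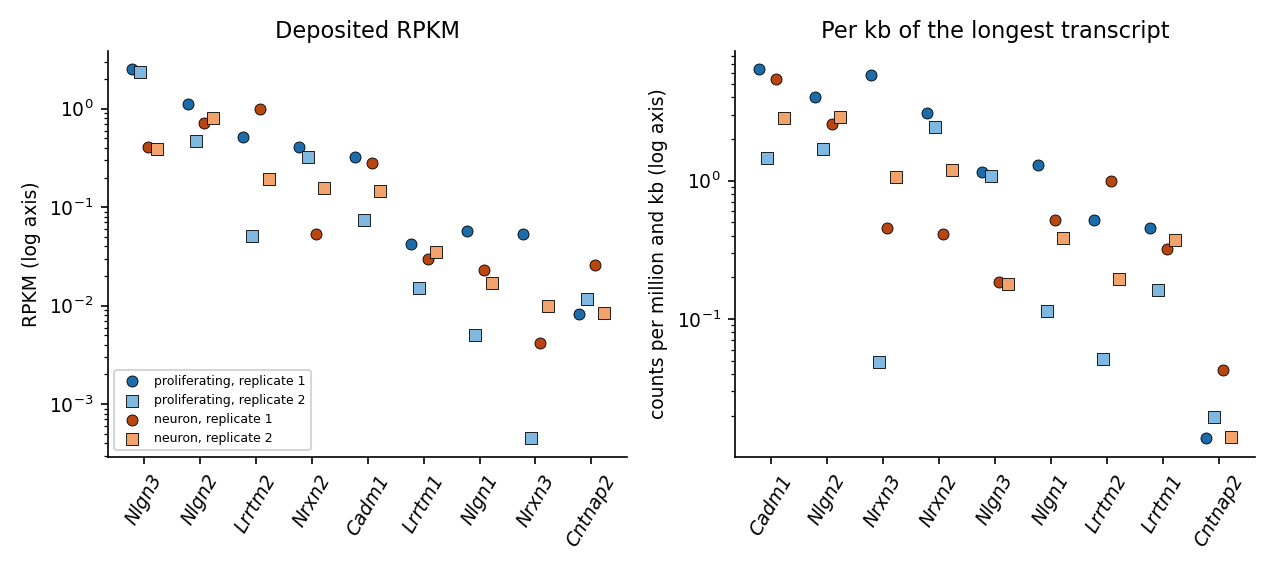
Per-length level of the 9 genes in each library, in deposited RPKM (left) and in RPKM recomputed with the longest GENCODE transcript as length (right), both on log axes and ordered by the mean over 4 libraries. Nrxn3 moves from rank 8 to rank 3 and Nlgn3 from rank 1 to rank 5, while Nlgn2 keeps its place.

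Partners of these proteins were read from 6 lists, named by role, with 100 genes in all, of which 55 were tested. At an adjusted p-value under 0.05, 0 of the 55 were called. At an unadjusted p-value under 0.05, 1 was higher (Tenm2, a teneurin, named after its values were seen) and 1 lower (Slitrk2). These are 1.82% of the 55 each way, beside 0.915% and 2.51% of all tested genes. The neuron libraries did not overlap the proliferating ones in 5 genes that were higher (9.09%, against 12.9% of all tested genes) and 10 that were lower (18.2%, against 14.5%). Both counts are near the background. The median log2 fold change was -0.07 over the 55, against 0.02 over all genes.

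Of 17 other ligands of neurexins, 4 were tested (23.5%, against 25.6% of all genes) and 6 had 0 counts in every library (35.3%, against 48.3% of all genes). Their median log2 fold change was -0.52, with 1 positive and 3 negative. Dag1, dystroglycan, had 34.7 and 51.6 CPM in proliferating cells against 23.0 and 30.4 CPM in neurons, below both, a log2 fold change of -0.69 (SE 0.47). Clstn1, the calsyntenin 1 gene, had 48.2 and 81.4 CPM in proliferating cells against 37.6 and 64.3 CPM in neurons, which overlap. Among presynaptic scaffold genes 7 of 11 were tested, with 4 positive, 3 negative and a median of 0.38. Cask, which binds the neurexin tail, had 24.5 and 13.4 CPM in proliferating cells against 24.1 and 25.5 CPM in neurons. Lin7c, a partner of CASK, had the highest mean CPM of the list, with 66.1 and 14.1 CPM in proliferating cells against 74.5 and 44.5 CPM in neurons. The neurexin-binding adaptors of the Mint family differed in direction: Apba1 had 4.6 and 5.41 CPM in proliferating cells against 1.01 and 3.26 CPM in neurons, and Apba2 had 9.86 and 16.2 against 13.5 and 41.9 CPM. Apba1 did not overlap between the groups, and Apba2 did.

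On the postsynaptic side, 12 of 17 genes were tested, with 6 positive, 6 negative and a median of 0.03. Mdga1, whose product blocks neuroligin binding to neurexins, had 15.3 and 38.3 CPM in proliferating cells against 11.6 and 80.5 CPM in neurons, so neuron replicate 2 stood alone. The scaffold gene Dlg4 (PSD-95) had 12.0 and 24.1 CPM in proliferating cells against 8.33 and 15.4 CPM in neurons, and overlapped. Dlgap4, a PSD-95 binding scaffold gene, overlapped too, at 20.5 and 35.2 against 17.2 and 20.8 CPM. Its relative Dlgap2 had 4.27 and 0.948 CPM in proliferating cells against 4.71 and 6.32 CPM in neurons, above both, with the difference almost all in the second pair.

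In the Caspr and contactin list 4 of 15 genes were tested, 2 positive and 2 negative, with a median of -0.15, and 5 had 0 counts in every library. That median became 0.67 with proliferating replicate 2 left out and -0.97 with neuron replicate 2 left out. Cntn2, the contactin that pairs with Caspr2 on axons, followed the replicate numbers: 3.37 and 0.421 CPM in the replicate 1 libraries (proliferating, neuron) and 34.4 and 16.2 CPM in the replicate 2 libraries. It was lower in neurons in both pairs (-2.54 and -1.08 on the log2 scale), but without proliferating replicate 2 its log2 fold change was 1.29. Kcna2, a potassium channel gene of the same complex, had 5.59 and 3.93 CPM in proliferating cells against 3.11 and 12.6 CPM in neurons. Cntnap1, the paranodal Caspr gene, had 2.63 and 3.38 CPM in proliferating cells against 3.36 and 6.12 CPM in neurons. Both overlapped between the groups.

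Of the SynCAM and nectin list 5 of 8 were tested, with 1 positive, 4 negative and a median of -0.21. Cadm4 had 9.04 and 17.5 CPM in proliferating cells against 3.45 and 8.26 CPM in neurons, without overlap and opposite in sign to Cadm1 (log2 fold change -1.18, SE 0.62). The nectin gene Nectin2 was also lower in both neuron libraries, at 3.11 and 3.57 CPM against 3.62 and 7.17. Farp1, a synaptic partner of SynCAM 1, and Nectin1 overlapped, with log2 fold changes of -0.21 and -0.07. In the list of other synaptic organizers 23 of 32 were tested, with 12 positive, 11 negative and a median of 0.06. The receptor phosphatase gene Ptprs, with the highest mean CPM of the list, had 195 and 431 CPM in proliferating cells against 133 and 245 CPM in neurons. Ptprf, its paralog, had 53.2 and 99.2 against 42.3 and 55.4 CPM. Slitrk2, which encodes a ligand of such phosphatases, had 13 and 22 counts in proliferating cells and 4 in each neuron library (log2 fold change -2.39, SE 0.93). Il1rap, another such ligand, was likewise without overlap, at 2.79 and 8.12 CPM against 1.77 and 2.34 CPM. None of these genes passed the adjusted threshold in edgeR.

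Among the adhesion genes, Nlgn2 and Lrrtm1 had the most alike profiles over the 4 libraries, with a Euclidean distance of 0.244 between their centred log2 CPM values. Nrxn2 and Nlgn3 were 1.27 apart. For Cadm1, which has the most summed counts, the closest of 7289 other genes averaging 50 counts or more were Alg10b at 0.0661, Bmi1 at 0.0828 and Cnot1 at 0.0953. These distances rest on 4 libraries and are a description. That of Lrrtm1 also rests on few counts, 10 and 5 in proliferating cells and 9 and 16 in neurons.

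**Figure D5:**
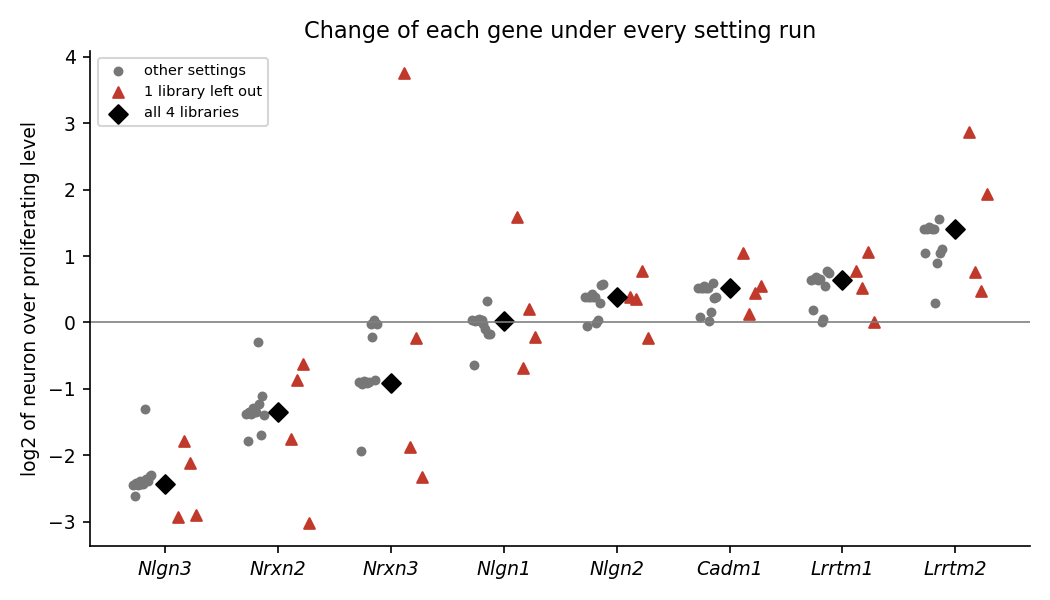
Log2 fold change of the 8 tested genes with all 4 libraries (diamonds), under other scalings, filters, units, tools and designs (grey points) and with 1 library left out (red triangles). All points of Nlgn3 and Nrxn2 lie below 0 and all points of Lrrtm2, Lrrtm1 and Cadm1 above it, while Nrxn3 runs from -2.33 to 3.75 when a library is left out.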

How the data were processed

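The authors deposited raw counts per gene symbol and RPKM values for 4 libraries. Per the submitters' processing notes, HISAT2, SAMtools, featureCounts, DESeq2 and deepTools 3.4.3 were used with mm10; their settings, the annotation, the use of strand and the treatment of reads with several matches are not given in the sources used here. Deposited RPKM values equal the count over the column total, 18S row included, and over 1 length per gene. Genes were placed with GENCODE M21, which uses the same build (GRCm38).

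The counts were tested with edgeR 4.0.16 (R 4.3.3): filterByExpr with a minimum count of 10 and a minimum total of 15, TMM, estimateDisp, glmQLFit with legacy = TRUE and glmQLFTest, two-sided, on the group alone, with Benjamini-Hochberg adjustment over 12783 genes. SE is the log2 fold change over the root of its F statistic. Differences within a pair, in log2 CPM (prior count 2), were not tested. The steps were tested on simulated data. The members and lists were chosen with earlier results of these data known. Single values of some marker genes are not reported here.

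Both replicate 2 titles name a set 2, so replicate numbers were taken as pairs. Same-numbered deviations correlated at r = 0.33 across genes. Named partners are, per list, the 2 tested genes of highest level and up to 2 of largest log2 fold change with 1 sign in both pairs and at least 20 counts. Alternatives were RLE factors, library size alone, no 18S row, DESeq2 1.42.0, no gene filter, a CPM filter, legacy = FALSE, limma 3.58.1 on log2(RPKM + 1) and log2(RPKM + 0.1), a replicate block, a GC correction (lowess, span 0.3, GC known for 90.7% of tested genes) without and with the block, and each library left out. Python 3.11.15 with scipy 1.17.1 gave the intervals.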

Additional observations from a re-analysis of the deposited data

How the results depend on the processing

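Nlgn3 and Nrxn2 kept a negative and Lrrtm1, Lrrtm2 and Cadm1 a positive log2 fold change in every alternative fitted, 15 for Lrrtm1, which did not pass the filter without the 18S row, and 16 for the others. The unadjusted p-value of Nlgn3 (edgeR, DESeq2 or limma) was at most 0.0412 in the 16, while its adjusted value ranged from 0.0486 (without proliferating replicate 1) to 1.0. Of 127 alternative values of the adhesion genes 12 changed sign. Nrxn3 was 0.03 with the replicate block and -2.33 to 3.75 with a library left out. Nlgn1 was -0.64 with library size alone, -0.02 and -0.10 on log2(RPKM + 1) and log2(RPKM + 0.1), -0.17 with the GC correction, -0.18 with that and the block, and -0.69 to 1.58 with a library left out. Nlgn2 was -0.06 with library size alone, -0.0042 on log2(RPKM + 1) and -0.24 to 0.78 with a library left out. Nlgn3 was -2.92 to -1.78 there. Library size alone moved the median of all genes by -0.29, and log2(RPKM + 0.1) by -0.17; the causes of the sign changes were not tested. With a prior count of 0.5, Lrrtm2 differed by 1.89 in pair 2.

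The number of genes called was 0 higher and 0 lower. It was 12 and 47 with DESeq2, 41 and 122 with no gene filter, 0 and 2 with library size alone, 0 and 1 on log2(RPKM + 1), 0 and 2 on log2(RPKM + 0.1), 0 and 3 with the replicate block, 0 and 2 with the GC correction and the block, and 1 to 37 higher and 9 to 90 lower with a library left out. The block changed no call of an adhesion gene.

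The Caspr and contactin median ran from -0.97 to 0.67 and the postsynaptic one from -0.23 to 0.41 with a library left out, and they were -0.65 and -0.43 with library size alone. The median of the other neurexin ligands ran from -0.84 to 0.17 with a library left out. That of the presynaptic scaffold genes was -0.06 with library size alone, -0.0041 and 0.04 on log2(RPKM + 1) and log2(RPKM + 0.1), and -0.02 to 0.12 with a library left out. The SynCAM and nectin median was -0.71 with library size alone, -0.50 on log2(RPKM + 0.1) and -1.04 to 0.04 with a library left out, and that of the other organizers -0.45 with library size alone and -0.38 to 0.12. Among 21 partner genes, 12 of 336 values changed sign. Cask was -0.06 with library size alone and -0.0041 on log2(RPKM + 1), and Nectin1 0.24 with the GC correction and 0.15 with the block added. With a library left out Clstn1 ran from -0.78 to 0.08, Mdga1 from -1.20 to 1.59, Lin7c from -0.15 to 2.06, Cntn2 from -5.44 to 1.29, Kcna2 from -0.62 to 1.36, Farp1 from -1.04 to 0.28 and Nectin1 from -1.06 to 0.73.

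Per kb of the longest transcript, levels were 1.79 for Nrxn2, 1.84 for Nrxn3, 0.579 for Nlgn1, 2.8 for Nlgn2, 0.0226 for Cntnap2, 0.328 for Lrrtm1 and 4.04 for Cadm1. Depth limits Cntnap2, Lrrtm1 and Lrrtm2, with 9, 40 and 94 counts in all.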
